A study of Mus musculus with 8 samples.

Results

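The cytosolic ribosomal protein genes encode the protein part of the ribosomes that translate nuclear messages. From the RefSeq genes of GRCm38 that code for protein, those were taken whose symbol begins with Rpl or Rps followed by a digit, together with Rpsa, Rplp0, Rplp1 and Rplp2, leaving out kinases such as the Rps6k genes. The rule found 91 of 21887 protein-coding genes. Of these, 77 encode subunits of the ribosome (31 small subunit, 43 large subunit and 3 stalk proteins), 12 are copies or paralogs and 2, Rps19bp1 and Rps23rg1, are named after a ribosomal protein without being one.

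H3K27ac and H3K9ac, acetylation marks of histone H3, were mapped in small intestinal crypts of male C57BL/6J mice aged 9 weeks by CUT&Tag, in which an antibody brings a transposase to the mark and the tagged fragments are sequenced. The 4 groups were fed mice (Fed) and mice fasted for 24 h (Fast), each without tetracycline or with tetracycline for 21 days, an antibiotic that reduces intestinal bacteria, and the labels name no transgene or mutation. Each mark had 1 sample per group, and each sample had 2 peak lists, numbered 1 and 2 in the deposited names, so each mark had 8 lists. Crypts were shaken off in an EDTA buffer and dissociated with trypsin, so every list is a mixture of crypt cell types, and fewer cells carrying a mark and less mark per cell cannot be told apart.

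A ribosome consists of a small subunit that reads the message and a large subunit that joins amino acids, and the stalk of the large subunit recruits elongation factors. Ribosomal protein genes are short, are transcribed in nearly all cells, and most of their messages begin with a C followed by a run of C and T letters, the terminal oligopyrimidine (TOP) motif, through which mTORC1 signalling controls their translation by nutrients. Crypts renew the epithelium by constant division and need a large supply of ribosomes. H3K27ac marks active promoters and enhancers, and H3K9ac mainly active promoters and the first part of the transcribed gene.

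The sequences below show the start of 6 of these genes, chosen because the results turn on where a peak lies relative to the start. They run 5′ to 3′ on the gene's strand from 100 bases before the first listed start to base 20 of the transcript, and come from RefSeq for GRCm38.p6. Capitals mark a run of C and T letters from the start, where it begins with C and has at least 5 letters, and matches to the motifs named after the list. Rps6, Rps18 and Rplp2 have such a run; Rpl11 has the letters CCGGAAG just after the start; Rpl19 and Rpl10l have no run.
Rps6 (chr4:86857348-86857467, minus strand): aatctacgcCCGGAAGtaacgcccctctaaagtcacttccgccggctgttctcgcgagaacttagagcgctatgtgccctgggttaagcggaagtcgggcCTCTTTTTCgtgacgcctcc
Rps18 (chr17:33955646-33955765, minus strand): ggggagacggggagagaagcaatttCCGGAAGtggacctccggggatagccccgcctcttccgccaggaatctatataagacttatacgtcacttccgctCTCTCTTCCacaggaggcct
Rplp2 (chr7:141447551-141447670, plus strand): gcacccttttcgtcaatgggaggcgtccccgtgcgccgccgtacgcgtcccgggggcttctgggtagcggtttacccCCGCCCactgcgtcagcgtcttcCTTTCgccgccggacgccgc
Rpl11 (chr4:136053374-136053493, minus strand): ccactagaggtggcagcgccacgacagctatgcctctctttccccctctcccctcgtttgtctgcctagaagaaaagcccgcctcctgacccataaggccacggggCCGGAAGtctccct
Rpl19 (chr11:98026610-98026729, plus strand): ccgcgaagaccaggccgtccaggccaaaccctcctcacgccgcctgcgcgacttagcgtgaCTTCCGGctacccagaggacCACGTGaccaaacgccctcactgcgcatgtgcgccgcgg
Rpl10l (chr12:66284382-66284501, minus strand): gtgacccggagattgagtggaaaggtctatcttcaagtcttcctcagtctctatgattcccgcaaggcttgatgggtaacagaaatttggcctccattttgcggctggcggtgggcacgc

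The table of starts held 70 of the 91 genes, and 17492 genes in all. A first transcribed base C was listed for 24 of the 70 (34.3%), against 13.7% of all genes, and a C that begins a run of at least 5 C or T letters for 14 (20%), against 2.17%. A run of at least 6 C or T letters within 10 bases of the start was present in 47.1%, against 20.7%. Listed starts can be off by some bases, and these shares count only the base that is listed. Motifs were searched on both strands in 250 bases before and 50 after the start. CCGGAAG, a core letter pattern of ETS family factors, occurred in 25 promoters (35.7%, against 11.9% of all), and AAGATGGC, known as a pattern of YY1, in 6 (8.57%, against 3.21%). GGGCGG, the GC box, occurred in 57.1% (against 46.3%), the TATA letters TATAAA in 12.9% (against 13.3%) and the E-box CACGTG in 7.14% (against 7.91%). The median GC content was 57% for ribosomal protein genes and 56.3% for all genes.

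Lists held 32392 to 68545 H3K27ac peaks and 17249 to 99050 H3K9ac peaks, and their depth is unknown. Peaks lay at the ends of 42.9 to 50.7% of all genes for H3K27ac and 41.1 to 53.2% for H3K9ac. Genes that mark epithelium had H3K27ac in 10 of 10 cases in every list and H3K9ac in 8 to 10. Of the 10 stromal genes, 0 to 1 were marked by H3K27ac and 0 to 5 by H3K9ac, and of the 10 immune genes 2 to 5 and 2 to 4. The labels do not say whether lists 1 and 2 came from separate mice, so p-values measure only the spread between lists, which may be technical.

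Presence of a mark at a gene means at least 1 peak no more than 1 kb from its first or last base. Both marks were present at most ribosomal protein genes whatever the condition. H3K27ac was found at 62 of 91 in all 8 lists (68.1%, against 33.6% of all genes) and in no list at 5 (against 39.4% of all genes). H3K9ac was found at 54 in all 8 lists (59.3%, against 21.1%) and in no list for 3 (against 25.2%). Both marks were present in all 16 lists at 43 genes (against 17.6% of all genes) and neither in any list at 3, Rpl39l, Rpl31-ps12 and Rps27rt (against 22.4%). A further 20 genes lacked a peak in a single list of the 16.

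Absence from a single list accounted for much of the remainder. Of the 14 genes with H3K27ac in 7 of 8 lists, 6 lacked it only in the second Fast list with tetracycline. Of the 20 with H3K9ac in 7 of 8 lists, 7 lacked it only in the H3K9ac list of that name. Over all 21887 genes, 1538 and 2669 were marked in 7 of 8 lists. Which list those genes lacked was not counted, so the 6 and 7 cannot be called particular to ribosomal protein genes. The H3K27ac list had the smallest share of all genes marked (42.9%). The H3K9ac list, at 43.1%, did not. The first Fed list without tetracycline had 41.1%, and 3 of the 20 lacked H3K9ac only there. The genes lacking a mark only in the second Fast list with tetracycline included Rpl12, Rpl28, Rpl31, Rps13 and Rps3a1 for H3K27ac. For H3K9ac they were Rpl27, Rpl34, Rpl35a, Rpl36al, Rps14, Rps24 and Rps27l.

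**Figure D1:**
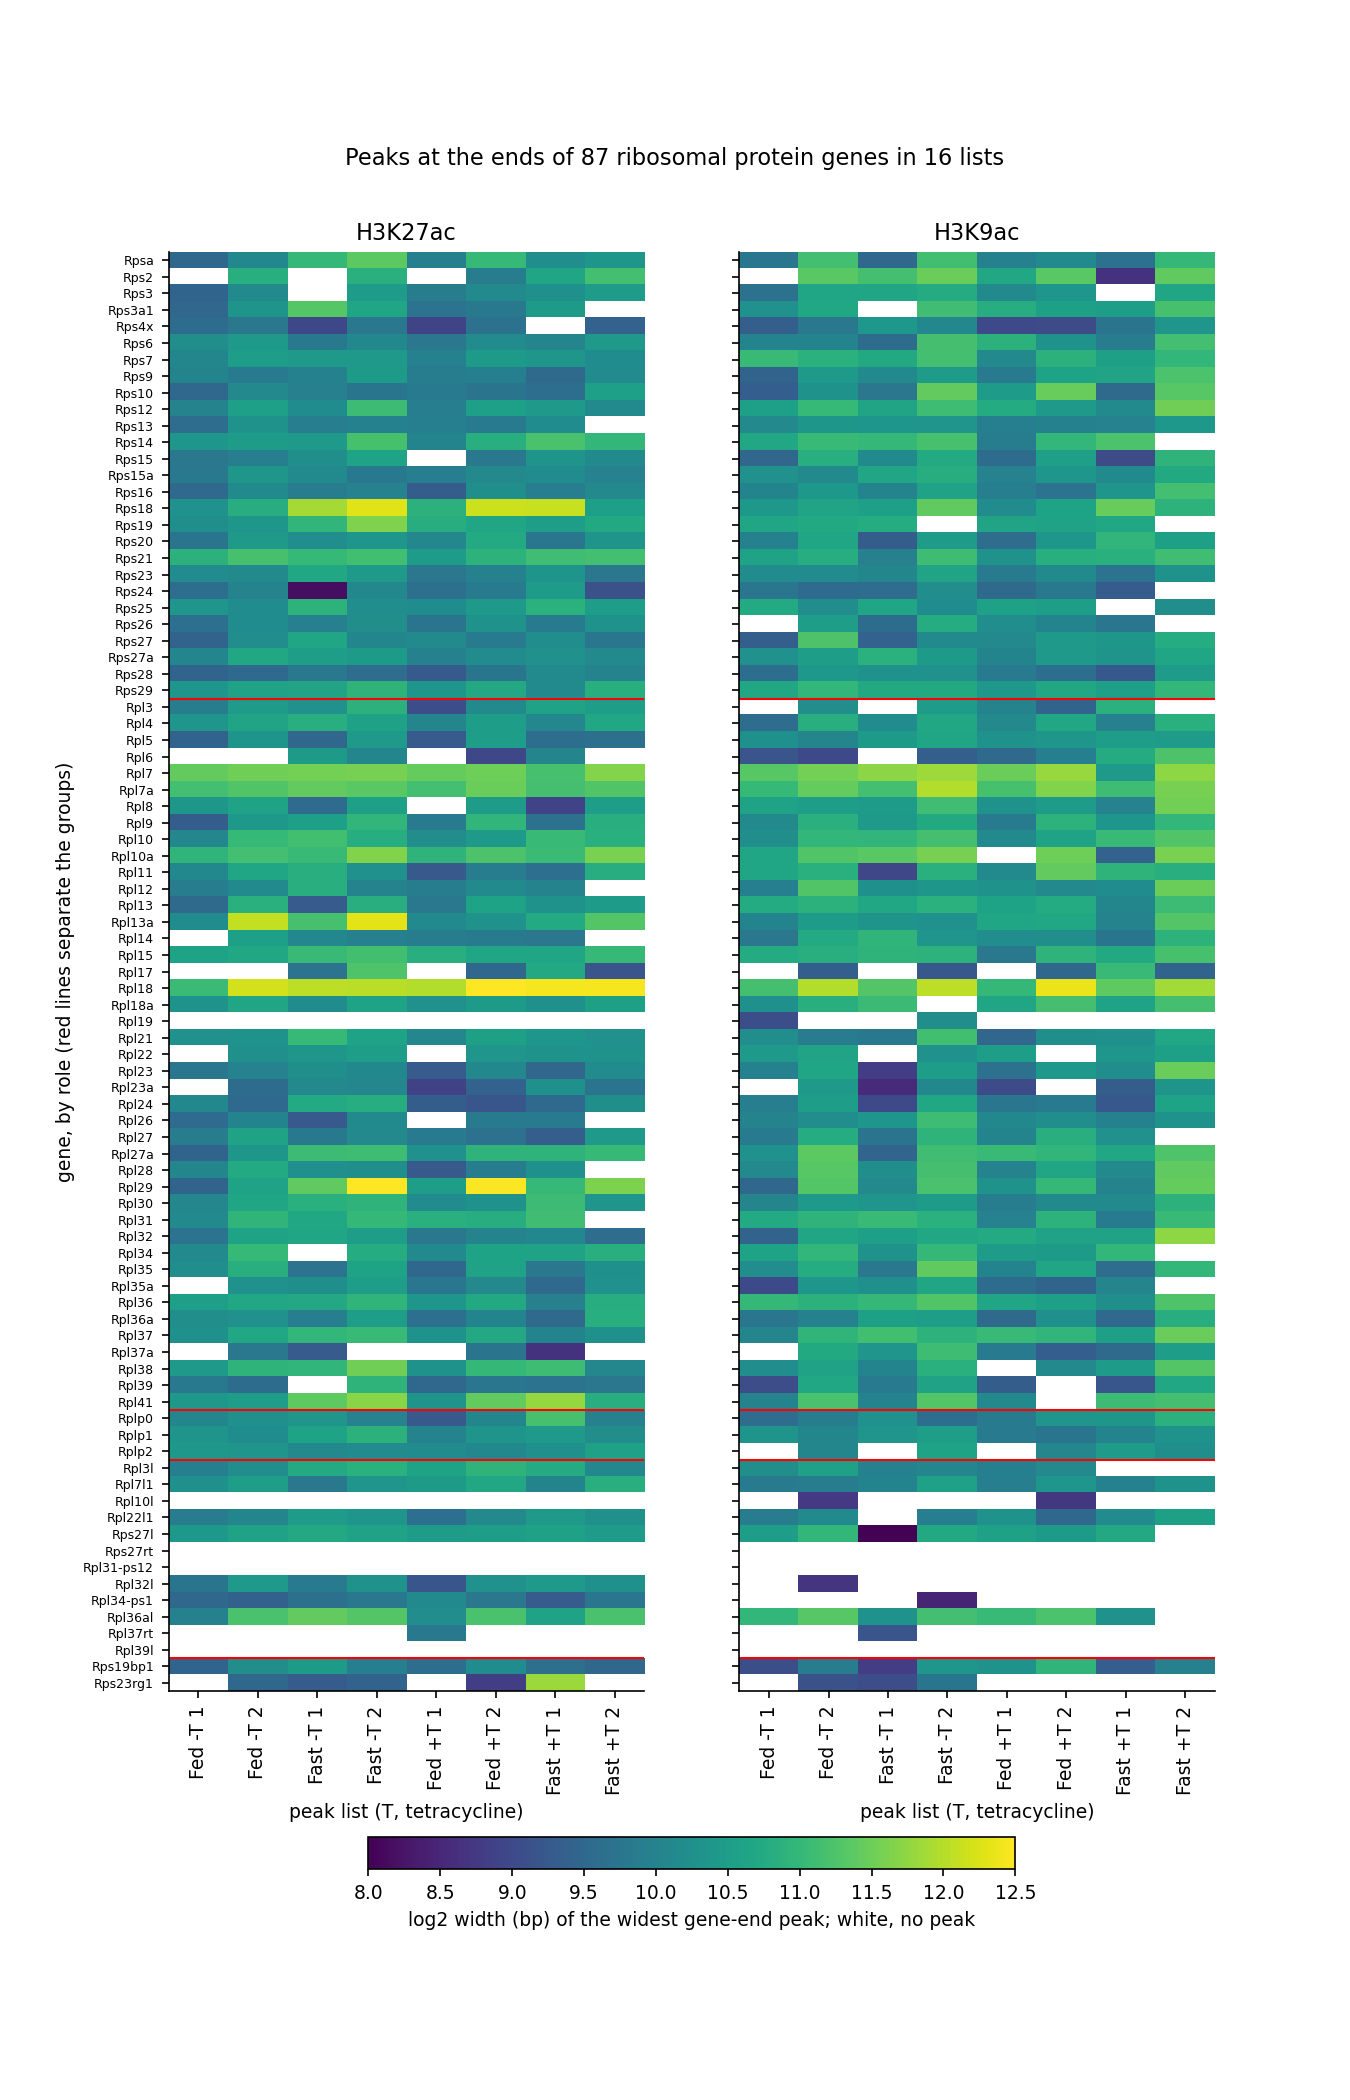
Width on a log2 scale of the widest peak at each of 87 of the 91 genes (lines, grouped by role and separated in red) in each of 8 H3K27ac and 8 H3K9ac lists (columns; T, tetracycline; 1 and 2, list number), with white for no peak. Rows of the subunit genes are filled in nearly every column, Rpl39l, Rpl31-ps12 and Rps27rt are empty throughout, and Rpl7, Rpl7a and Rpl18 carry wide peaks of both marks.

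Among small subunit genes, 23 of 31 carried H3K27ac and 22 carried H3K9ac in all 8 lists. Rpsa, a small subunit protein also described as a laminin receptor, and Rps6, which S6 kinases phosphorylate downstream of mTORC1, had both marks in all 16 lists. Rps14 and Rps19, whose loss impairs maturation of the small subunit, had H3K27ac in all 8 lists. H3K9ac was absent at Rps14 from 1 list and at Rps19 from both Fast lists numbered 2, while the other 6 lists gave Rps19 peaks of 1545 to 1756 bp. Rps27 was marked in all 16 lists.

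Large subunit genes had both marks about as often, with 28 of 43 in all 8 lists for each. Rpl5 and Rpl11, which bind Mdm2 together with 5S rRNA when ribosome assembly is impaired, and Rpl10, one of the last proteins to join the large subunit, had both marks in all 16 lists. Rpl3 had H3K27ac in 8 lists and H3K9ac in 5. By its gene ends, Rpl22 had H3K27ac in 2 Fed and 4 Fast lists, lacking it in the first Fed list of both tetracycline states. Its H3K9ac lay there in 3 lists of each feeding state. Counted by listed start, however, Rpl22 had both marks in all 8 lists. The genes with the fewest H3K27ac lists, apart from Rpl19, were Rpl6 (1 Fed and 3 Fast), Rpl37a (2 and 2) and Rpl17 (1 and 4). Their H3K9ac counts were 7, 7 and 5 lists of 8. Rpl17 lies on chromosome 18 at 74998978 to 75003381, and its peaks also reached the end of a neighbouring gene, BC031181.

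The stalk genes Rplp0, Rplp1 and Rplp2 all had H3K27ac in all 8 lists, with widths of 611 to 2330 bp, 1033 to 1897 bp and 1104 to 1532 bp. Rplp0 and Rplp1 also had H3K9ac in all 8. Rplp2 had H3K9ac in 5, lacking it in 3 of the 4 lists numbered 1, where the fourth, Fast with tetracycline, had a peak of 1435 bp. The 4 X-linked genes were similar: Rpl10 and Rpl36a were marked in all 16 lists, Rps4x lacked H3K27ac in 1 list, and Rpl39 lacked each mark in 1.

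Copies and paralogs differed from the subunit genes in both marks, and by presence in all 8 lists mainly in H3K9ac. Of the 12, 7 had H3K27ac in all 8 lists but only Rpl7l1 had H3K9ac in all 8, whereas the 77 subunit genes had counts of 54 and 52. H3K27ac was in no list at 4 of the 12 and 1 of the 77, and H3K9ac at 3 and 0. The 7 include Rpl3l, treated below, whose peaks lay at its far end. The paralogs Rpl22l1, Rps27l and Rpl36al had H3K27ac in 8 lists and H3K9ac in 7. Rpl32l and Rpl34-ps1 had H3K27ac in 8 lists and H3K9ac in 1. Rpl10l and Rpl39l, paralogs known from the male germ line, had no H3K27ac in any list, and Rpl10l had H3K9ac peaks of 430 and 424 bp in the second Fed lists without and with tetracycline. Rpl10, its X-linked parent gene, had H3K9ac peaks of 1119 to 2474 bp. Near-identical copies share reads, so a peak at a copy is uncertain.

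A gene end is not always a start. The table of starts places the first start of Rpl19, Rpl18, Rps2 and Rps27l 4707, 2604, 1942 and 1462 bp inside the listed gene. Rpl19, with no H3K27ac and 2 H3K9ac lists by its gene ends, had a peak within 1 kb of a listed start in all 8 lists of both marks. Rps2 moved from 5 and 7 lists to 8 and 8, and Rpl22 from 6 and 6 to 8 and 8. The muscle paralog Rpl3l moved the other way: its 8 H3K27ac and 6 H3K9ac lists came from the far end of the gene, which lies by an end of Msrb1, and no peak lay near its own starts in any list. Counted by listed start, 47 of the 70 genes had H3K27ac in all 8 lists (against 34.5% of all 17492 genes) and 42 had H3K9ac (against 21.5%), where gene ends gave 46 and 40 of the same 70. Both marks lay at a listed start in all 16 lists for 33 (against 17.8%). This count was added after the data were seen.

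Neighbours also contributed to gene-end peaks. For 37 of the 91 genes, another gene's end lay within 1 kb of the peaks. Widths were ranked by the median log2 width, given here in bp, among the genes that had a peak in every one of the 8 lists for that mark. The widest H3K27ac peaks of these, at Rpl18, had a median width of 4467 bp (2142 to 12184 bp) and also reached Car11, Dbp, Fam83e and Sphk2. In each list they lay around the outer gene end at 45715467 on chromosome 7, and none was within 1 kb of the listed start at 45718071. Another H3K27ac peak lay within 1 kb of that start in all 8 lists.

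Rpl7 and Rpl7a were also among the widest. Rpl7 had a median H3K27ac width of 2927 bp (2349 to 3239 bp) and a median H3K9ac width of 3186 bp (1376 to 3653 bp), close to the 3178 bp of Rpl18. Rpl7a had 2483 bp (2273 to 2875 bp) and 2542 bp (2079 to 4042 bp). These 3 genes were among the 5 widest for both marks. Rps18 (2689 bp) and Rpl36al (2365 bp) completed the H3K27ac list, and Rpl27a (2042 bp) and Rpl10 (2009 bp) the H3K9ac list. The widest H3K27ac peaks of Rps18 lay at the far end of the gene in all 8 lists, not at the start shown above. At that far end they also reached ends of B3galt4, Vps52 and Wdr46. Another H3K27ac peak lay within 1 kb of the listed start of Rps18 in all 8 lists. The narrowest H3K27ac peaks lay at Rpl5 (799 bp), Rps28 (818 bp), Rpl34-ps1 (838 bp), Rps24 (858 bp) and Rps19bp1 (889 bp), and the narrowest H3K9ac peaks at Rps4x (873 bp), Rpl24 (948 bp), Rps19bp1 (974 bp), Rpl7l1 (1027 bp) and Rps28 (1063 bp). Genes with a peak in fewer lists were not ranked, and some had medians beyond these, such as Rps23rg1 (688 bp) and Rps4x (767 bp) for H3K27ac and Rpl10a (2608 bp) and Rps2 (2597 bp) for H3K9ac. Width did not fix the rank by score: Rpl5, the narrowest of the ranked genes for H3K27ac, had a median score percentile of 40.9 for H3K27ac but 92.7 for H3K9ac.

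The marks differed in how these genes stood against other genes. Each peak carries the authors' own score, which was turned into a percentile among all peaks of its list. For H3K9ac, the median percentile of marked ribosomal protein genes was 76.7 to 94.4 across the lists, against 70.6 to 88.7 for all marked genes, and it was higher than for all genes in 8 of 8 lists. Over the genes with a peak in all 8 lists, however, it was higher in 5 of 8, at 78.7 to 95.2 against 80.2 to 93.5. H3K27ac percentiles of marked genes were 55.4 to 82.1, against 65.8 to 82.1. The H3K27ac value was below that of all genes in 7 of 8 lists, with the first Fast list without tetracycline, at 82.1 for both, the exception, and it was below in 8 of 8 over genes with a peak in all 8 lists. Rps6 (99.0) and Rpl7a (99.8) had median H3K9ac percentiles near the top of the lists.

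Width gave a similar contrast. Over genes with a peak in all 8 lists, H3K27ac peaks at ribosomal protein genes had medians of 1073 to 1589.5 bp, and those of all genes 1303 to 1834 bp. The log2 ratio of the medians was below 0 in 7 lists, from -0.31 to -0.21, and 0.0086 in the first Fast list without tetracycline. H3K9ac medians were 1102 to 2022 bp, against 1184 to 1634.5 bp, with log2 ratios from -0.17 to 0.31. Within a list pair of the same group and number, the H3K9ac peak was wider than the H3K27ac peak at 40.3 to 83.6% of ribosomal protein genes carrying both, against 26.7 to 45.4% of all such genes, and the share was higher for ribosomal protein genes in 8 of 8 pairs. Correspondingly, a median of 63.3 to 84.7% of the H3K9ac peak lay inside the H3K27ac peak, against 89.9 to 95.4% over all genes. Whether list numbers match lists across the marks was not tested. The widest peaks of the marks can also lie at different ends of a gene. At Rps18 the widest peak lay near the start in 0 of 8 H3K27ac lists and 4 of 8 H3K9ac lists.

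**Figure D2:**
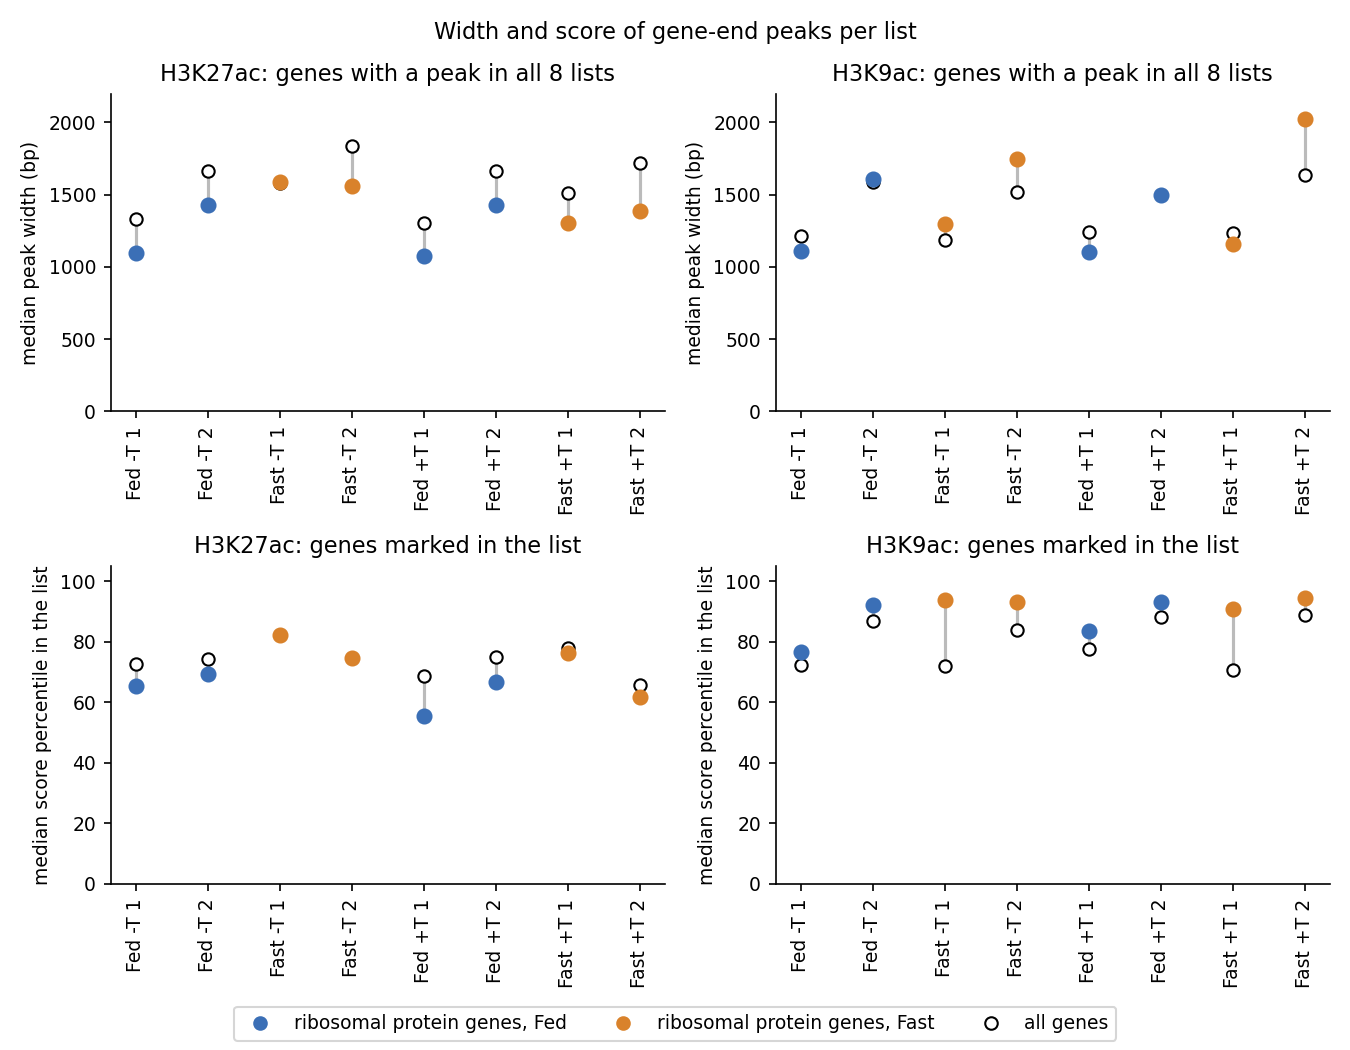
Median peak width in bp of genes marked in all 8 lists (top) and median score percentile of the genes marked in each list, a larger set (bottom), with ribosomal protein genes filled (blue Fed, orange Fast) and all genes open. H3K9ac percentiles of ribosomal protein genes lie above those of all genes in 8 of 8 lists (5 of 8 over the genes of the top panel), and H3K27ac widths lie below in 7 of 8.

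In most lists H3K9ac peaks at ribosomal protein genes reached further into the gene than those of all genes. Measured from the first listed start of the 70 genes, H3K9ac peaks reached a median of 445 to 585 bp upstream, as for all genes (410 to 520 bp), and 566.5 to 1389 bp downstream, against 586 to 842 bp. Downstream reach was longer than for all genes in 6 of 8 lists, and shorter in the Fed lists numbered 1, at 585 against 636 bp without and 566.5 against 612 bp with tetracycline. The start itself lay inside 89.8 to 100% of the H3K9ac peaks near it. At 1000 bp downstream, 18.6 to 65.7% of ribosomal protein genes had an H3K9ac peak, against 10.2 to 19.5% of all genes. These shares count marked and unmarked genes, and at the start itself they were 72.9 to 90%, against 37.0 to 46.3%. The gap at 1000 bp therefore mixes presence of a peak with its reach. Ribosomal protein genes are short, with a median length of 3175 bp against 17169 bp for all genes, so this position is nearer to their far end.

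The design asks whether fasting, and tetracycline, alter these marks. By presence, ribosomal protein genes did not separate by feeding. No ribosomal protein gene was marked in all 4 Fast lists and no Fed list or the reverse, for H3K27ac (against 0.0959% and 0.0137% of all genes) or H3K9ac (0.0777% and 0.0411%). More Fast than Fed lists carried H3K27ac at 9 genes and fewer at 11 (against 13.2% and 9.44% of all genes). For H3K9ac the counts were 13 and 18 (against 23.8% and 20.7%). The number of genes marked per list differed, Fast minus Fed, by 0.5 for H3K27ac and -1.75 for H3K9ac, within the SD between the 2 lists of a sample (5.24 and 5.01).

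Nor did presence separate by tetracycline. No ribosomal protein gene was marked in all 4 lists with tetracycline and none without, or the reverse, for H3K27ac (0.00457% and 0.0959% of all genes) or H3K9ac (0.0457% and 0.0411%). Here too the shares over all genes are so low that a count of 0 says little. More lists with than without tetracycline carried H3K27ac at 8 genes and fewer at 12 (against 8.19% and 13.9% of all genes). For H3K9ac the counts were 10 and 19 (against 22.2% and 20.8%). No test was made of these counts.

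Peak width was compared next, as log2 width in a limma model over all genes with a peak in all 8 lists. Benjamini-Hochberg adjustment covered all genes tested, 7362 for H3K27ac and 4626 for H3K9ac. None of the 62 ribosomal protein genes tested for H3K27ac, and none of the 54 for H3K9ac, changed with fasting at an adjusted p of 0.05. Among all genes 0.0136% passed as wider (1 gene) and 0% as narrower for H3K27ac, and 0% in each direction for H3K9ac. At an unadjusted limma p under 0.05, 8 of 62 ribosomal protein genes and 547 of 7362 genes were counted for H3K27ac, and 3 of 54 and 180 of 4626 for H3K9ac. Only genes with a peak in every list could enter, so these are not all ribosomal protein genes.

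The log2 differences in width nevertheless lay mostly on one side. For H3K9ac the Fast minus Fed difference was above 0 at 46 of 54 ribosomal protein genes, with a median of 0.18, while 48.7% of all tested genes were above 0, with a median of -0.0093. The median rested in part on the second Fast list with tetracycline. Without it, 30 of 61 genes were above 0 and the median was -5.88e-05, although 42 of the 61 still lay above the median of all genes. By covered length in the gene and 1 kb around, all genes also had a median above 0, at 0.15, against 0.26 for ribosomal protein genes. Of the 54, 40 then lay above the median of all genes, against 46 by width. For H3K27ac, 52 of 62 were above 0, with a median of 0.20 against 0.13 for all genes, 72.7% of which were above 0. After each list was centred on its own median, which moves the median of all genes by over 0.1 to -0.034, the H3K27ac median of ribosomal protein genes was 0.040, and 36 of 62 were above 0.

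These widths were not always those of a peak at the start. Among tested ribosomal protein genes with a listed start, the widest peak lay within 1 kb of it in all 8 lists at 35 of 46 for H3K27ac and 31 of 40 for H3K9ac. Over these genes the medians were 0.24 (31 of 35 above 0) and 0.16 (27 of 31 above 0). All genes chosen in the same way had medians of 0.13 for H3K27ac and 0.0059 for H3K9ac, with 74.0 and 50.7% above 0. This selection was added after the data were seen.

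By role, the H3K9ac difference was above 0 at 20 of 22 small subunit genes, 23 of 28 large subunit genes and both stalk genes tested, with medians of 0.16, 0.18 and 0.33. The corresponding H3K27ac counts were 19 of 23, 24 of 28 and 3 of 3, with medians of 0.18, 0.23 and 0.32. Other genes of the translation machinery gave smaller or mixed H3K9ac differences. Among the translation factors and other TOP messages, such as Eef2 and Tpt1, 5 of 12 were above 0 (median -0.035), among ribosome assembly genes 10 of 14 (0.13), and among mitochondrial ribosomal protein genes 23 of 44 (0.041). For H3K27ac these counts were 11 of 17, 12 of 16 and 30 of 44, with medians of 0.11, 0.11 and 0.10. The epithelium genes, which are no part of that machinery, had H3K9ac differences above 0 at 6 of 8 (median 0.23) and H3K27ac differences above 0 at 9 of 10 (0.34). None of the differences between these lists was tested.

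**Figure D3:**
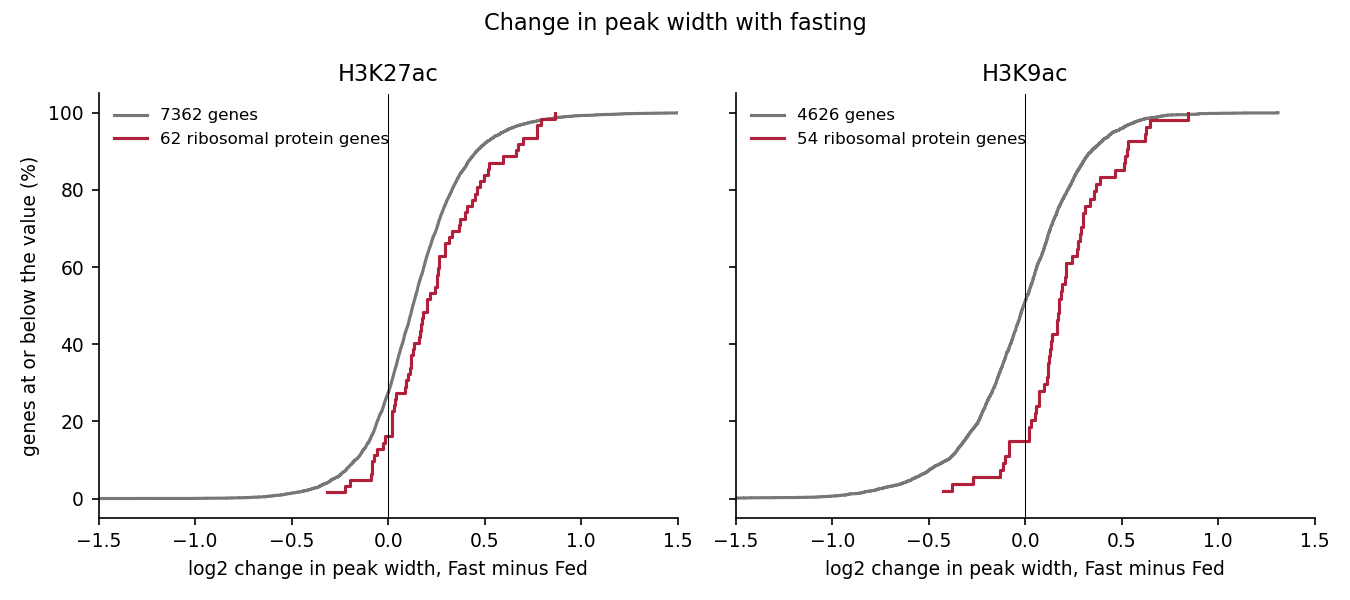
Cumulative share in percent of tested genes at or below each log2 difference in peak width, Fast minus Fed, for all genes (grey) and ribosomal protein genes (red). The H3K9ac curve of the 54 ribosomal protein genes lies to the right of that of 4626 genes, with medians of 0.18 and -0.0093, and the H3K27ac curves are closer, with medians of 0.20 and 0.13.

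Rps4x, the X-linked gene of a small subunit protein, had the largest positive H3K9ac difference. Its H3K9ac peaks were 660 and 892 bp wide in Fed lists without tetracycline and 509 and 531 bp with it, and 1353 and 1101 bp in Fast lists without tetracycline and 855 and 1303 bp with it. Only the Fast list of 855 bp lay within the Fed range. The log2 difference was 0.85 (SE 0.23, limma adjusted p = 0.99, unadjusted p = 0.0045), so it did not pass adjustment. H3K27ac at Rps4x showed no such spread in width, with Fed peaks of 488 to 879 bp and Fast peaks of 501 to 896 bp in the 3 lists that had one.

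Rpl10 had positive Fast minus Fed differences in both marks, with overlap between Fed and Fast lists in each. H3K9ac peaks at Rpl10 were 1202, 2022, 1119 and 1569 bp in Fed lists and 1997, 2307, 2094 and 2474 bp in Fast lists, so that 3 of 4 Fast lists exceeded every Fed list. H3K27ac peaks were 1086, 2067, 1198 and 1386 bp in Fed and 2248, 1777, 2118 and 1844 bp in Fast lists. The Fast peaks of 1777 and 1844 bp were narrower than the Fed peak of 2067 bp. The log2 differences were 0.62 (SE 0.24) and 0.52 (SE 0.22), with limma adjusted p = 0.99 and 0.66.

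Rpl24, a large subunit protein that forms a bridge to the small subunit, had the lowest H3K27ac p of the group. Its H3K27ac peaks were 1102 and 739 bp in Fed lists without tetracycline and 643 and 590 bp with it, against 1723 and 1797 bp and 739 and 1213 bp in Fast lists. Fast lists were wider within each tetracycline state, with an overlap between states. The log2 difference was 0.79 (SE 0.21, limma adjusted p = 0.58), and with minus without tetracycline it was -0.72 (SE 0.21, limma adjusted p = 0.999). H3K9ac peaks at Rpl24 were 511 to 971 bp in the lists numbered 1 and 925 to 1649 bp in those numbered 2, and Fed and Fast lists overlapped. The peak of 511 bp, in the first Fast list without tetracycline, lay inside the gene and did not cover its start.

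Rpl29, a large subunit protein, had the largest H3K27ac difference, 0.87, with a wide spread (SE 0.59, limma adjusted p = 0.76). Its H3K27ac peaks were 698 and 1546 bp in Fed lists without tetracycline, 1465 and 5703 bp with it, 2705 and 5742 bp in Fast lists without tetracycline and 2057 and 3113 bp with it. The 2 widest values came from different feeding states. They did not lie at one site: 3 lists had the peak at the end of the gene with the lower coordinates, 3 at or beyond the other end, and the peaks of 5703 and 5742 bp covered the whole gene. No start was listed for Rpl29, and its peaks also reached the end of Acy1.

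Differences below 0 were few and uncertain. For H3K27ac the lowest were at Rps24 (-0.32, SE 0.45) and Rpl7l1 (-0.22, SE 0.22), with limma adjusted p of 0.87 and 0.80. The Rps24 value rested on a peak of 287 bp in the first Fast list without tetracycline, which lay upstream and did not cover the start, and was 0.15 without that list. For H3K9ac they were at Rps19bp1 (-0.43, SE 0.41) and Rpl11 (-0.38, SE 0.45), both with a limma adjusted p of 0.99. The widest Rps19bp1 peak, 1970 bp in the second Fed list with tetracycline, lay beyond the far end of the gene, and the other 7 lay near its start. A single narrow peak also set the Rpl11 value: 496 bp in the first Fast list without tetracycline, against 1124 to 2725 bp in the other lists, and 0.099 without that list. It lay beyond the far end of the gene (136048281 to 136048776 on chromosome 4), whereas the other 7 covered the start shown above.

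Genes named for their roles, whatever their values, showed little separation. Rps6 had H3K9ac peaks of 1047 to 1889 bp in Fed and 767 to 2296 bp in Fast lists (log2 difference 0.14, SE 0.39), and H3K27ac peaks with a difference of -0.056 (SE 0.20). Rpsa differed by 0.60 (SE 0.37) for H3K27ac and 0.070 (SE 0.46) for H3K9ac. The stalk genes Rplp0 and Rplp1 differed by 0.46 (SE 0.33) and 0.32 (SE 0.16) for H3K27ac and 0.37 (SE 0.25) and 0.30 (SE 0.19) for H3K9ac. The Rplp0 H3K9ac peak of 793 bp in the second Fast list without tetracycline lay away from the listed start. Rpl5 differed by -0.088 (SE 0.33) and 0.29 (SE 0.19), Rps27 by 0.25 (SE 0.25) and -0.10 (SE 0.41), and Rpl36a by 0.16 (SE 0.29) and 0.46 (SE 0.31), for H3K27ac and H3K9ac. All these had a limma adjusted p of at least 0.69.

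In the profile around start sites, the H3K9ac difference between feeding states was larger downstream than upstream. At 1000 bp into the gene, 18.6 and 20% of the 70 genes had an H3K9ac peak in the Fed lists numbered 1, and 45.7 and 37.1% in the Fast lists of that number, without and with tetracycline. In the lists numbered 2 the shares were 52.9 and 37.1% in Fed and 65.7 and 58.6% in Fast. Fast was higher in 4 of 4 pairs of the same number and tetracycline state, with means of 51.8 and 32.1%, although Fed and Fast lists overlapped when numbers were mixed. Over all 17492 genes the means were 15.5 and 14.7%, and Fast was higher in 2 of 4 pairs. At 1000 bp upstream the means were 11.8% in Fast and 8.57% in Fed lists, higher in 4 of 4 pairs (all genes 7.15 and 6.56%, 2 of 4 pairs). At the start itself 77.1% of ribosomal protein genes had an H3K9ac peak in Fast and 83.9% in Fed lists, lower in 4 of 4 pairs. All genes were also lower there in Fast, at 38.5 and 41.8%, in 3 of 4 pairs.

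The median reach of H3K9ac peaks downstream of these starts was 585, 997, 566.5 and 861.5 bp in the Fed lists and 896.5, 1319, 769 and 1389 bp in the Fast lists, in the order list 1 and 2 without and then with tetracycline. Each Fast value exceeded the Fed value of the same number and state, by 202.5 to 527.5 bp. Over all genes the differences ran from -27 to 51 bp. The median reach upstream was higher in 1 of 4 pairs. List numbers were not shown to pair the lists for either mark, and for H3K27ac levels are given first. Downstream H3K27ac reach at ribosomal protein genes was 489 to 701 bp in Fed and 559 to 838 bp in Fast lists, which overlap, with means of 580 and 724 bp, and over all genes the means were 691 and 755 bp. Upstream H3K27ac reach was 466 to 513.5 bp in Fed and 533 to 577 bp in Fast lists, which do not overlap. Over all genes it was 547 to 602 bp and 582 to 653 bp. H3K27ac lay 1000 bp upstream at a mean of 13.6% in Fast and 7.86% in Fed lists (all genes 12.2 and 9.56%). H3K27ac lay 1000 bp downstream at a mean of 28.6% of ribosomal protein genes in Fast and 14.6% in Fed lists, against 17.9 and 14.9% of all genes. Matched by number all the same, this share was higher in Fast in 4 of 4 pairs, by 1.43 to 24.3 percentage points (all genes 3 of 4). Median H3K27ac reach downstream was likewise higher in 4 of 4, by 62.5 to 349 bp (all genes 4 of 4, by 47.5 to 92 bp). So was reach upstream, in 4 of 4, by 43 to 111 bp (all genes 4 of 4, by 35 to 58 bp). The H3K27ac share at 1000 bp upstream was also higher in 4 of 4 (all genes 3 of 4). Measures from starts were added after the data were seen, and no test was made of them.

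**Figure D4:**
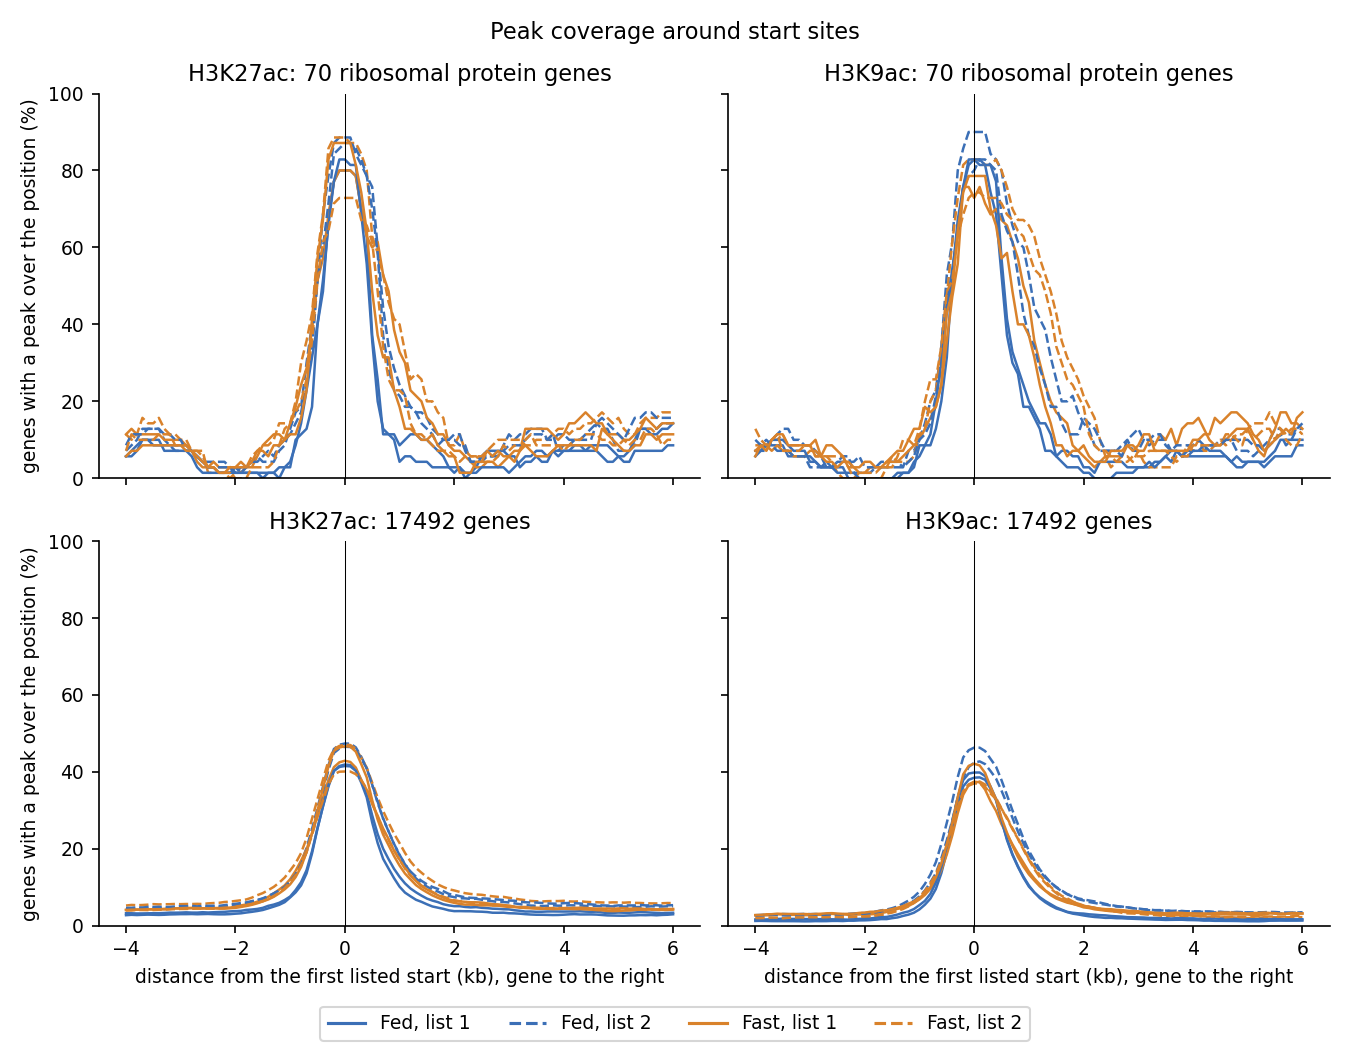
Share in percent of the 70 ribosomal protein genes (top) and of 17492 genes (bottom) with a peak over each position from 4 kb upstream to 6 kb downstream of the first listed start, 1 line per list (blue Fed, orange Fast; solid list 1, broken list 2). At 1 kb downstream the H3K9ac lines of ribosomal protein genes lie at 18.6 to 52.9% in Fed and 37.1 to 65.7% in Fast lists, and those of all genes at 10.2 to 19.5% and 13.4 to 17.4%.

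Other properties of the lists also differed by feeding, though not in every list. The mean number of peaks per list was 36901 in Fed and 71504 in Fast for H3K9ac, and 41135 and 54354 for H3K27ac. The H3K9ac rise lay in the lists numbered 1, from 17249 to 99050 without and from 24643 to 97764 with tetracycline. In those numbered 2 the number fell, from 51552 to 35889 and from 54158 to 53313. For H3K27ac, Fed lists held 32392 to 48242 peaks and Fast lists 36737 to 68545, which overlap. Of 5 crypt stem cell genes, 0 to 2 had H3K27ac in Fed lists and 3 to 4 in Fast lists (H3K9ac, 0 to 2 and 1 to 4). The Paneth cell genes, 4 in all, were at 0 to 1 and 0 to 3 for H3K27ac and 0 to 2 in both states for H3K9ac. Immune genes were at 2 to 5 in Fed and 4 to 5 in Fast of 10 for H3K27ac, and stromal H3K9ac genes at 0 to 1 and 0 to 5 of 10. The part of peak number and of cell composition in the widths was not tested.

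Tetracycline and its interaction with feeding gave no change in width at an adjusted p of 0.05 among ribosomal protein genes or all genes (0% called in each direction). At an unadjusted limma p under 0.05, 2 of 62 and 0 of 54 ribosomal protein genes were counted for tetracycline (180 and 99 of all genes), and 4 and 0 for the interaction (153 and 97 of all genes), for H3K27ac and H3K9ac. The median log2 difference with minus without tetracycline was -0.097 for H3K27ac (all genes -0.038) and -0.066 for H3K9ac (all genes 0.026), and above 0 at 21 of 62 and 24 of 54 ribosomal protein genes. The H3K9ac median turned to 0.039, 0.094, 0.055 and 0.080 without the second Fed or second Fast list without tetracycline, or the first Fed or first Fast list with it. The H3K27ac median stayed below 0 in the 21 alternatives run. The interaction medians were -0.14 and 0.057 (all genes -0.045 and 0.12).

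None of the largest single values for tetracycline passed adjustment. The value of Rpl24 had the smallest error of those named here (SE 0.21), with an unadjusted limma p of 0.0086 (adjusted p = 0.999). For H3K27ac they were lower at Rpl13a (-0.81, SE 0.42), whose widest peak lay near its start in 1 of 8 lists, and Rpl24 (given above) and higher at Rpl18 (0.77, SE 0.38) and Rpl29 (0.42, SE 0.59). For H3K9ac they included a lower value at Rpl31 (-0.44, SE 0.30) and higher values at Rps19bp1 (0.60, SE 0.41) and Rpl32 (0.59, SE 0.33). Rpl18 shows what lies behind such a value: its H3K27ac peaks were 2142 and 4708 bp in Fed and 4239 and 4197 bp in Fast lists without tetracycline, and 4029 and 12184 bp and 5554 and 5576 bp with it. A single peak of 12184 bp stood apart from the others.

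The interaction, the fasting difference with tetracycline minus that without, was lowest for H3K27ac at Rpl29 (-2.12, SE 0.997) and Rps18 (-1.74, SE 0.84) and highest at Rplp0 (0.91, SE 0.62) and Rps24 (0.73, SE 0.93). H3K27ac peaks at Rps18 were 1242 and 1787 bp in Fed and 3823 and 4948 bp in Fast lists without tetracycline, and 1891 and 4595 bp and 4457 and 1483 bp with it. Without tetracycline the Fast lists were both wider, and with it the lists of each state spread across the same range. These widest peaks lay at the far end of Rps18 in all 8 lists, by its neighbours. For H3K9ac the lowest were Rps10 (-1.29, SE 1.04) and Rps19bp1 (-1.06, SE 0.78) and the highest Rpl23 (1.43, SE 0.90). All of these had a limma adjusted p of at least 0.99.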

How the data were processed

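Peaks of 16 deposited lists (H3K27ac and H3K9ac, 4 groups each, 2 lists per sample) were analysed. Per the submitters' processing notes, FastQC, Bowtie and SAMtools were used with build mm10. The authors called peaks per library, and peak names begin with MACS; its version, cutoff and use of IgG libraries are not given in the sources used here. The score in the deposited lists is the authors' own value with no stated unit, and was compared only within a list. Deposited names describe the data as downsampled; no read totals are given, so depth is unknown.

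A gene's value was the log2 width of its widest peak within 1 kb of either gene end (RefSeq table, GRCm38.p6). Genes that had such a peak in each of the 8 lists for a mark were fitted with limma 3.58.1 (R 4.3.3), with feeding and tetracycline as terms, and the product in a separate fit; the method was tested on simulated data. Python 3.11.15, numpy 2.4.6, pandas 2.3.3 and matplotlib 3.10.9 were used. Named genes were those missing from some lists, the 5 widest and 5 narrowest per mark, the 2 largest changes per direction, and 22 genes fixed by role. Members and gene lists were chosen with earlier results of these data known. Alternatives were other windows (2.5 kb or 0), covered length (pseudocount 100 bp), centred lists, equal numbers of top peaks, the upper 0.5 of peaks by score, sample means, genes with 6 of 8 lists, left-out lists, and a replicate block. List numbers come from the deposited names, not from the labels. For H3K9ac, same-numbered lists deviated together weakly in all 6 pairs of groups (correlations 0.10 to 0.16 across 4626 genes), and the numbers were used to pair the lists. For H3K27ac the correlations were 0.085 to 0.24. Correlations this low do not show that the lists are matched, for either mark. No start site was listed for 21 of the 91 genes, whose promoters are not analysed here. Values of some single genes are not reported here.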

Additional observations from a re-analysis of the deposited data

How the results depend on the processing

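The H3K27ac and H3K9ac calls among ribosomal protein genes, 0 in each test, were 0 under each alternative run; sample means and single list numbers give the interaction no test. With the replicate block, medians were as reported (for example 0.20 and 0.18 for feeding), 0 ribosomal protein genes passed for either mark, and 10 genes in place of 1 passed for H3K27ac feeding among all genes. For H3K27ac, same-numbered lists had correlations of 0.085 to 0.24 in 6 pairs of groups, not all over 0.1.

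Over 21 alternatives the feeding median lay between 0.040 and 0.38 (H3K27ac) or between -5.88e-05 and 0.34 (H3K9ac), with the sign kept in 21 and 20. The tetracycline median ran from -0.19 to -0.035 (sign kept in 21) and from -0.21 to 0.094 (kept in 15). Leaving out lists gave 0.088 to 0.38 and -5.88e-05 to 0.34, and for the interaction -0.32 to 0.077 (H3K27ac) and -0.23 to 0.48 (H3K9ac). Leaving out the lists of 1 number gave Fast minus Fed differences in genes marked of -5 to 6 for H3K27ac, a width ratio difference of -0.018 to 0.20 for H3K27ac, counts in all Fast and no Fed lists of 0 to 5 (H3K27ac), and in all Fed and no Fast lists of 0 to 1 (H3K27ac) and 0 to 2 (H3K9ac); fewer lists make such counts easier to reach. With the upper 0.5 of peaks by score, the H3K27ac difference in genes marked was 7.5, the percentile difference from all genes -7.45, and 27 (H3K27ac) and 32 (H3K9ac) genes were marked in every list. With equal numbers of top peaks these were -12.75 and 25 for H3K9ac. With a window of 2.5 kb the H3K27ac percentile difference was -2.08 (reported, -5.03). The causes were not tested.

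Single genes whose direction turned were, for fasting, Rps24 (-0.66 to 0.15 leaving out lists) and Rpl7l1 (0.016 by covered length, 0.0049 with window 0) for H3K27ac, and Rpl11 (0.35 by covered length, -0.73 to 0.099 leaving out lists) for H3K9ac. For tetracycline they were Rpl13a (0.22) and Rpl18 (-0.0066) by covered length and Rpl29 (-0.022 and -0.19 among -0.19 to 0.85 leaving out lists) for H3K27ac, and Rpl31 (0.012 by covered length, -0.96 to 0.074 leaving out lists) and Rps19bp1 (-0.32, 2.5 kb) for H3K9ac. The Rps24 interaction ran from -0.23 to 1.70 leaving out lists. Unknown depth and 2 lists per sample limit all values.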
